A study of Mus musculus with 6 samples.

Results

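Genes of prostaglandin synthesis, breakdown and reception were chosen by symbol and followed in embryonic mouse lung. They were Ptgs1, Ptgs2, Ptges, Hpgd, Ptger1, Ptger2, Ptger3, Ptger4, Ptgfr and Ptgir. All 10 of 10 were measured, each by 1 probe set, among 21950 gene symbols and 28815 probe sets on the array. The study compared 3 lungs of the genotype Shh-cre:Foxp1flox/flox:Foxp4flox/flox, called mutant here, with 3 Shh-cre control lungs, all taken at E14.5 on a mixed background of C57BL/6 with 129X1 and 129S1. Both groups carried Shh-cre, a Cre recombinase driven from Shh, a gene expressed in the embryonic lung epithelium, and the mutants in addition had floxed alleles of Foxp1 and Foxp4, which encode transcription repressors of the forkhead family. The study asked how their loss changes gene expression as the secretory epithelium of the lung forms. The arrays were of lung tissue rather than sorted cells, so mesenchyme, vessels, mesothelium and blood cells were measured along with the epithelium. In such samples fewer cells of a type and less RNA per cell cannot be told apart.

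Prostaglandins are short-lived lipid signals. Phospholipases release arachidonic acid from membranes, the cyclooxygenases Ptgs1 and Ptgs2 turn it into prostaglandin H2, and terminal synthases such as Ptges, microsomal prostaglandin E synthase, make the individual prostanoids from it. Hpgd, 15-hydroxyprostaglandin dehydrogenase, inactivates prostaglandins such as prostaglandin E2 and is abundant in lung. The signal is read by G protein-coupled receptors, which raise cAMP (Ptger2, Ptger4 and the prostacyclin receptor Ptgir), lower it (Ptger3) or mobilise calcium (Ptger1 and the prostaglandin F receptor Ptgfr).

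Of the 10 genes, the prostaglandin E receptor Ptger4 fell in mutant lungs and the other 9 did not pass the test. Ptger4 was 1.38-fold lower in mutants (95% interval 1.28 to 1.48). The next 2 in order of p were the cyclooxygenase Ptgs1 and the prostacyclin receptor Ptgir, whose log2 differences were -0.26 and -0.09. The count of 1 in 10 stands against 0.774% of all probe sets with a limma adjusted p under 0.05, 0.26% being lower in mutants and 0.514% higher. The 10 genes were chosen with earlier results of these data known, so this comparison is no test of the set. With 1 probe set per gene symbol, as for the 10 genes, 66 of 21950 passed and were lower and 75 higher. The groups did not overlap for 3 of the 10 genes, Ptger4, Ptgs1 and Ptgir, each lower in mutants, against 18.0% of all probe sets without overlap and 10.1% without overlap and lower. At an unadjusted p under 0.05 there were 2 of the 10, Ptger4 and Ptgs1, against 11.8% of all probe sets. The median log2 difference of the 10 genes was -0.02, with 5 above 0 and 5 below, and that of all gene symbols was -0.02 as well.

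**Figure D1:**
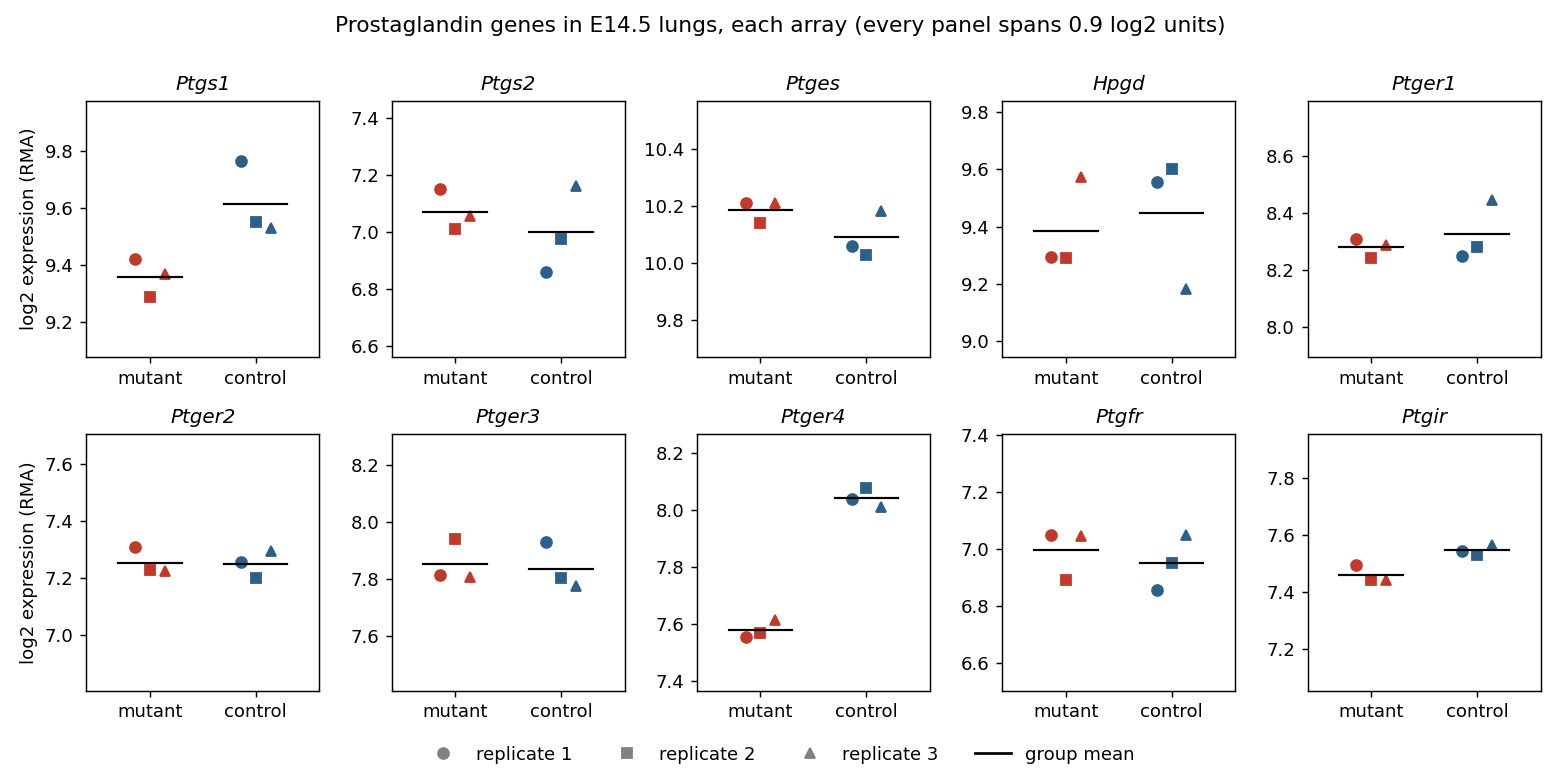
Each panel plots 1 gene, with log2 expression on the vertical axis and the 3 mutant and 3 control arrays as points, marked by replicate number, and the group mean as a line. Every panel spans the same height in log2 units, so the distance between the groups of Ptger4 (7.58 in mutants, 8.04 in controls) can be set beside that of the other genes.

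Ptger4 encodes EP4, the prostaglandin E2 receptor that raises cAMP and whose loss in mice leaves the ductus arteriosus open after birth. Its log2 expression was 7.55, 7.57 and 7.61 in the mutant lungs, against 8.04, 8.08 and 8.01 in the control lungs. The mutants lay within 0.06 of each other and the controls within 0.07, and the gap between the highest mutant and the lowest control was 0.40. The means were 7.58 ± 0.03 in mutants and 8.04 ± 0.03 in controls (log2, SD, n = 3 each), a log2 difference of -0.46 (SE 0.04, 95% interval -0.57 to -0.36, limma adjusted p = 0.0125). Its residual SD of 0.03 was below the median of 0.07 over all probe sets. The difference was smaller than the median size of 0.57 among all called probe sets, and 38 of the 75 probe sets called lower had a larger one. The 2-sided exact permutation test gave p = 0.1, the smallest that 3 against 3 values allow.

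In the authors' deposited table Ptger4 had a fold of -1.38 and a q of 0%, and it was the 1 gene of the 10 with a q under 5%, against 1.72% of all probe sets there. The call ended without control 2 (limma adjusted p = 0.0648) and without mutant 2 (limma adjusted p = 0.0608), 2 fits in which 18 and 11 probe sets were called in all, while the log2 difference without any 1 array stayed between -0.48 and -0.45. Control 3 stood apart from the other arrays in sex-linked transcripts, with Xist at 12.83 against 6.00 to 6.23 in the other 5 arrays and Ddx3y at 5.89 against 9.45 to 10.64. Without it the log2 difference of Ptger4 was -0.48 (limma adjusted p = 0.0271).

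The sequence in front of Ptger4 is shown because it is the gene of the set that changed, and that of Ptger2 because its product binds the same ligand and also raises cAMP, while its level differed by 0.00 on the log2 scale. Both are the 250 bases before and 50 bases after the start of the gene in RefSeq, at chr15:5244138-5244437 (minus strand) and chr14:44987861-44988160 (plus strand) of build GRCm38.p6, written 5′ to 3′ along the gene. Capitals mark CCAAT boxes (CCAAT or ATTGG) and GC boxes (GGGCGG or CCGCCC).
Ptger4: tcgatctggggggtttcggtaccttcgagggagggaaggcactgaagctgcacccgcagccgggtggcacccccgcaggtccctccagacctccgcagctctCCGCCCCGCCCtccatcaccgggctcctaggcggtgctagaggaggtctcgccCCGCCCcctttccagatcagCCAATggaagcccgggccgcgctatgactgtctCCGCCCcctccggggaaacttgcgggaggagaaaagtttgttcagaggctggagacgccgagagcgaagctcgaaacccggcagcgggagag
Ptger2: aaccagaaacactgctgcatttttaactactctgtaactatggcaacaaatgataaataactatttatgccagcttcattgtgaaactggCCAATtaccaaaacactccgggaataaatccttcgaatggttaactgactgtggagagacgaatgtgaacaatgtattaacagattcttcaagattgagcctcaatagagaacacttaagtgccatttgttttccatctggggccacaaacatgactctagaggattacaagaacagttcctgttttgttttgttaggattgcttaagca
The Ptger4 window holds 4 GC boxes, the first 2 of them sharing 1 base, and 1 CCAAT box 75 bases before the start, with 67.0% G and C. The Ptger2 window holds 0 GC boxes and 1 CCAAT box 160 bases before the start, with 37.7% G and C, against a median of 52.7% over all 32851 such windows. On either strand a CCAAT box is found in 37.4% of all windows and a GC box in 35.7%. The core letters of forkhead sites, TAAACA or TGTTTA, are found in 13.4% of all windows, and among the windows of the 9 genes listed for the set in 1, that of Ptgfr, so neither printed window holds them. Other forms of the forkhead site were not searched. A TATA box (TATAAA or TTTATA) is found in 13.6% of all windows and in 1 of the 9, that of Hpgd. These are matches of letters in short windows and show neither binding nor its absence, and the array does not tell which start site was used.

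The synthesis enzymes were the cyclooxygenases and Ptges. Ptgs1, the constitutive cyclooxygenase, stood at 9.42, 9.29 and 9.37 in mutants, against 9.76, 9.55 and 9.53 in controls. All mutants lay below all controls, with a gap of 0.11 between the groups, and control 1 was the highest array. The log2 difference was -0.26 (SE 0.07, 95% interval -0.43 to -0.09), which did not pass (limma adjusted p = 0.240, unadjusted p = 0.00857). It ranged from -0.30 to -0.18 over the fits without 1 array, the smaller size being that without control 1, and passed in 0 of the 13 alternatives.

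Ptgs2, the inducible cyclooxygenase, had log2 values of 7.15, 7.01 and 7.05 in mutants, against 6.86, 6.98 and 7.16 in controls. The groups overlapped, and the control arrays spread over 0.30 and the mutants over 0.14. Its log2 difference was 0.07 (95% interval -0.12 to 0.26, limma adjusted p = 0.752). Ptges, which makes prostaglandin E2, stood at 10.21, 10.14 and 10.21 in mutants, against 10.06, 10.03 and 10.18 in controls. Control 3 lay among the mutants and the other controls below them, and the log2 difference was 0.10 (95% interval -0.03 to 0.23, limma adjusted p = 0.530).

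Hpgd, the inactivating enzyme, was the least reproducible of the set. Its log2 expression was 9.29, 9.29 and 9.57 in mutants, against 9.55, 9.60 and 9.18 in controls. Mutant 3 lay with controls 1 and 2, and control 3 lay below all mutants. The log2 difference of -0.06 (95% interval -0.35 to 0.23, limma adjusted p = 0.870) came with a residual SD of 0.20. It was between -0.19 and 0.02 over the fits without 1 array, and -0.19 was the value without control 3. A change of up to 1.27-fold lower or 1.17-fold higher lay within the interval of Hpgd.

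Among the other prostaglandin E receptors, none passed (limma), and 0 of the 3 had an unadjusted p under 0.05. Ptger1, the calcium-coupled EP1, stood at 8.31, 8.24 and 8.29 in mutants, against 8.25, 8.28 and 8.45 in controls, a log2 difference of -0.05 (95% interval -0.19 to 0.10). Ptger2, the cAMP-raising EP2, stood at 7.31, 7.23 and 7.22 in mutants, against 7.25, 7.20 and 7.29 in controls, a log2 difference of 0.00 (95% interval -0.11 to 0.12). Ptger3, the cAMP-lowering EP3, stood at 7.81, 7.94 and 7.81 in mutants, against 7.93, 7.80 and 7.78 in controls, a log2 difference of 0.02 (95% interval -0.13 to 0.16). In all 3 the arrays of the groups were interleaved, and their limma adjusted p were 0.792, 0.985 and 0.926. The 95% interval of Ptger2 ran from 1.08-fold lower to 1.09-fold higher in the signal of lung tissue.

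The receptors of the other prostaglandins in the set did not pass either. Ptgfr, the prostaglandin F receptor, had log2 values of 7.05, 6.89 and 7.05 in mutants, against 6.86, 6.95 and 7.05 in controls. These overlapped, with a log2 difference of 0.04 (95% interval -0.12 to 0.20, limma adjusted p = 0.829). Ptgir, the prostacyclin receptor, had 7.50, 7.44 and 7.44 in mutants, against 7.54, 7.53 and 7.57 in controls. All mutants lay below all controls, by a gap of 0.03, and the log2 difference of -0.09 (95% interval -0.19 to 0.02) had a limma adjusted p of 0.486. Ptgfr, Ptgs2, Ptger2 and Ptgir are dim, with means at percentiles 30.6, 31.6, 35.2 and 39.5 of all probe sets, and no detection values were used, so changes in transcripts with little signal could be missed. Ptger4 itself lay at percentile 44.3.

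**Figure D2:**
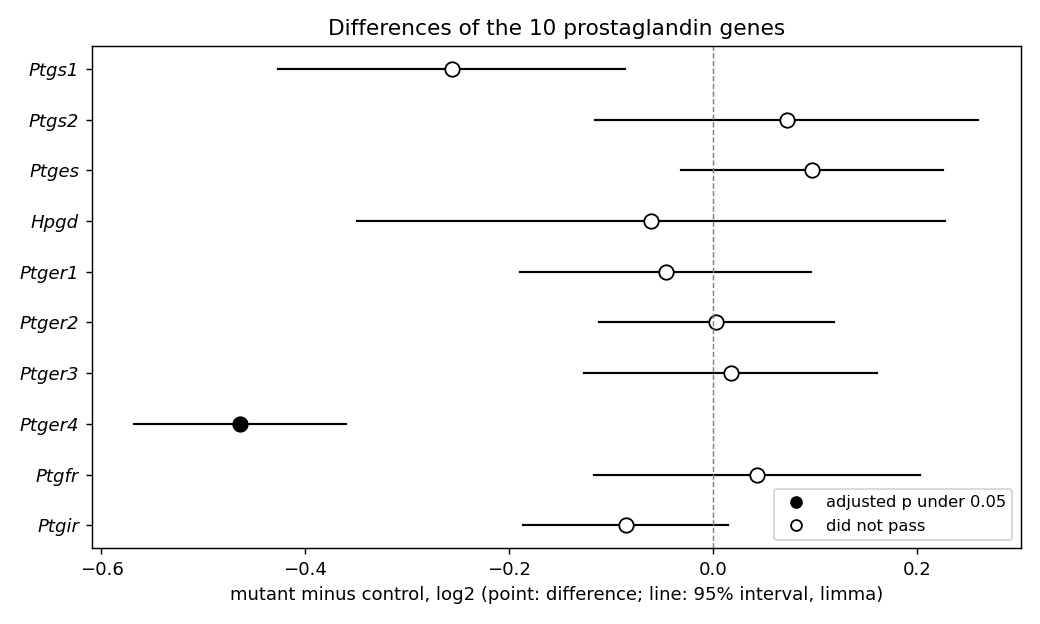
The difference between mutant and control arrays is plotted on the log2 scale for each gene, as a point with its 95% interval from limma. Ptger4 is the filled point, at -0.46, and its interval overlaps that of Ptgs1 and lies below those of the other 8 genes.

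The ratio of Ptger4 to each of the other 9 genes was taken within each array. Relative to Ptger2 this log2 ratio was 0.24, 0.34 and 0.39 in mutants, against 0.78, 0.88 and 0.72 in controls, a difference of -0.47. The groups did not overlap for 8 of the 9 ratios, with differences from -0.56 (to Ptges) to -0.38 (to Ptgir), and the 2-sided exact permutation p of each was 0.1 (0.113 adjusted over the 9 ratios). The exception was the ratio to Ptgs1, which differed by -0.21 with overlapping groups (exact permutation p = 0.2, also 0.2 adjusted). The 9 ratios share the Ptger4 values, and 3 against 3 arrays cannot reach a p under 0.05. Ptger4 was the gene that had passed in these same arrays, so the ratios largely restate its difference and are no separate test.

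The genes whose profile over the 6 arrays was nearest to that of Ptger4 were sought by the root mean square difference between 2 log2 profiles, each centred on its own mean. Among the nearest were Trnau1ap, a selenocysteine tRNA-associated protein (0.01), Nfu1, an iron-sulfur cluster scaffold (0.04), Bbs7, a subunit of the ciliary BBSome (0.05), and Adhfe1, an alcohol dehydrogenase family enzyme (0.05). The median over the 21949 genes compared was 0.23. Trnau1ap averaged 10.56 ± 0.03 in mutants and 11.03 ± 0.03 in controls (log2, SD, n = 3 each), a difference of -0.46 (limma adjusted p = 0.0125). The other 3 had log2 differences between -0.47 and -0.39 and limma adjusted p between 0.0157 and 0.0301. With 2 groups of arrays this measure mostly picks genes with the same difference and little spread. Ptger4 lies on chromosome 15, which carries none of Foxp1, Foxp4 and Shh (chromosomes 6, 17 and 5), and 13 of the 920 probe sets on chromosome 15 were called, beside 223 of all 28815 (0.774%).

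Of 45 other genes of the arachidonate pathway that were measured, out of 46 listed, 0 passed in either direction (limma), while 8 had an unadjusted p under 0.05, of which 7 were lower and 1 higher in mutants, set beside 11.8% of all probe sets at that p. Their median log2 difference was -0.04, against -0.02 over all gene symbols, and 34 lay below 0, as did 13320 of all 21950 gene symbols. The groups did not overlap for 10 of the 45, with 8 lower and 2 higher in mutants, while 18.0% of all probe sets had no overlap and 10.1% had none and were lower. The 7 other synthesis genes had log2 differences between -0.14 and 0.01. The prostacyclin synthase Ptgis averaged 9.84 ± 0.05 in mutants and 9.98 ± 0.11 in controls (log2, SD, n = 3 each), with a limma adjusted p of 0.450. Ptgds and Hpgds, the 2 prostaglandin D synthases, had log2 differences of -0.11 and -0.06 (limma adjusted p = 0.575 and 0.664), and Tbxas1, the thromboxane synthase, one of -0.04 (0.737).

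Genes of prostanoid breakdown and transport had a median log2 difference of -0.11, with 6 of 7 below 0 (13320 of all 21950 gene symbols) and 3 at an unadjusted p under 0.05 (11.8% of all probe sets). Abcc4, an efflux pump that can carry prostaglandins, stood at 8.22, 8.32 and 8.21 in mutants, against 8.46, 8.47 and 8.43 in controls. The groups did not overlap, but its log2 difference of -0.20 did not pass (limma adjusted p = 0.165). Ptgr1, a prostaglandin reductase, stood at 9.64, 9.61 and 9.71 in mutants, against 9.91, 9.92 and 9.77 in controls, a log2 difference of -0.21 (limma adjusted p = 0.218). Akr1b3, an aldose reductase with prostaglandin F synthase activity, had a log2 difference of -0.14 (limma adjusted p = 0.308), and its 3 other probe sets had -0.12 to -0.10. The probe sets of Akr1b3 are annotated to 1 gene, and whether they also bind near-identical copies was not checked. Akr1c18, which converts prostaglandins as well as steroids, was dim and had a log2 difference of -0.11 (limma adjusted p = 0.515).

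The remaining prostanoid receptor genes were the prostaglandin D receptors Ptgdr and Ptgdr2, the thromboxane receptor Tbxa2r and Ptgfrn, a negative regulator of Ptgfr. Their log2 differences were -0.02, -0.10, -0.05 and 0.02, and the limma adjusted p lay between 0.633 and 0.934. Among 14 phospholipase and lipase genes, Pla2g7, the enzyme that degrades platelet-activating factor, came closest to the threshold. It stood at 9.22, 9.42 and 9.39 in mutants, against 9.66, 9.80 and 9.73 in controls, with no overlap and a log2 difference of -0.39 (SE 0.07, limma adjusted p = 0.0590). In the authors' deposited table Pla2g7 had a q of 3.48%, the 1 of the 45 with a q under 5%, against 1.72% of all probe sets there. It lies on the chromosome of Foxp4, chromosome 17, with 83 measured genes between them. The secreted phospholipase Pla2g5 had a log2 difference of -0.27 (limma adjusted p = 0.191), and Pla2g10 and Pla2g2f each one of -0.11 (0.470 and 0.508).

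**Figure D3:**
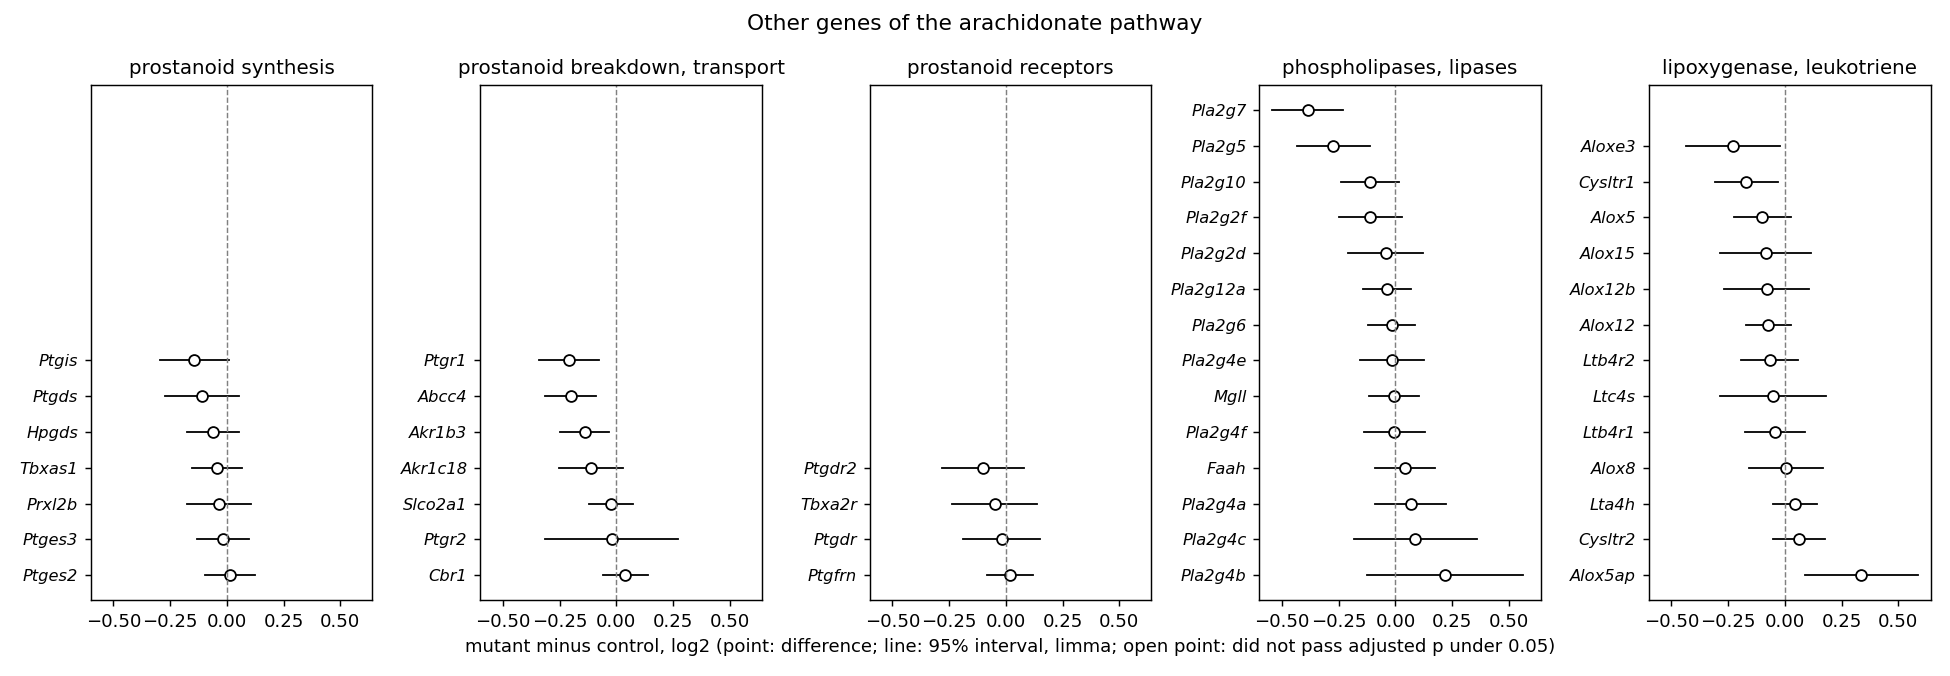
Log2 differences of the other pathway genes are plotted by list, each with its 95% interval from limma, and open points did not pass. No point is filled, and the lowest, Pla2g7 at -0.39, and the highest, Alox5ap at 0.34, lie in the lists of phospholipases and of the lipoxygenase branch.

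The lipoxygenase branch, which turns the same arachidonic acid into leukotrienes, held the 1 pathway gene that was higher at an unadjusted p under 0.05. Alox5ap, the protein that presents arachidonic acid to 5-lipoxygenase, stood at 8.79, 8.91 and 8.85 in mutants, against 8.62, 8.67 and 8.25 in controls. The groups did not overlap, control 3 was by far the lowest array, and the log2 difference of 0.34 (limma adjusted p = 0.281) was 0.21 without control 3. Alox5 itself had a log2 difference of -0.10, the leukotriene receptor Cysltr1 one of -0.17 and Aloxe3, an epidermal lipoxygenase, one of -0.23 (limma adjusted p = 0.512, 0.328 and 0.375).

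Marker lists of the cell types that a lung holds were read beside these values. Of all probe sets 0.774% passed and 11.8% had an unadjusted p under 0.05 (limma), and 13320 of all 21950 gene symbols lay below 0. Of 12 lung epithelial markers 0 passed (limma, 2 with unadjusted p under 0.05), and their mean log2 level was 11.44 to 11.48 in mutants and 11.36 to 11.45 in controls, above the array medians of 8.21 to 8.23, so markers of the labelled tissue were present. The surfactant gene Sftpc among them had a log2 difference of 0.38 (limma adjusted p = 0.212). Endothelial markers averaged 11.40 to 11.47 in mutants and 11.40 to 11.48 in controls, smooth muscle markers 10.60 to 10.63 in mutants and 10.53 to 10.61 in controls, and mesenchymal markers 11.77 to 11.87 in mutants and 11.85 to 11.88 in controls. In each of these 3 lists 0 of 8 passed (limma, with unadjusted p under 0.05 for 0, 1 and 1). Mesothelial markers lay at 9.22 to 9.40 in mutants and 9.41 to 9.50 in controls, 7 of 8 below 0, and 1 fell, the keratin Krt19 (log2 difference -0.42, limma adjusted p = 0.0382). Unadjusted p was under 0.05 for 3 of the 8 (limma), all lower and without overlap. These were Krt19, Aldh1a2 (-0.34, limma adjusted p = 0.215) and Gpm6a (-0.26, limma adjusted p = 0.172). Without overlap were 18.0% of all probe sets, and 10.1% were without overlap and lower. The 6 measured platelet and megakaryocyte markers all had differences below 0, with level means of 8.57 to 8.83 in mutants and 8.77 to 9.05 in controls, and 0 passed (limma, 2 with unadjusted p under 0.05, Gp9 at -0.32 and Itgb3 at -0.14). Macrophage markers averaged 8.87 to 8.90 in mutants and 8.73 to 8.88 in controls, and 0 of 10 passed (limma). Unadjusted p was under 0.05 for 1 of them, Cd68 at 0.22 (limma adjusted p = 0.237). Cx3cr1 and Mrc1, next in order of p, were lower, at -0.12 and -0.13 (limma adjusted p = 0.426 and 0.484). Of the 10 macrophage markers 7 lay above 0 and 3 below.

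Of 11 mast cell markers 2 rose, the histidine decarboxylase Hdc (log2 difference 1.21, limma adjusted p = 0.0164) and the carboxypeptidase Cpa3 (1.19, limma adjusted p = 0.0301), while Kit had -0.09 and the tissue mast cell protease Cma1 had 0.11 (0.632 and 0.652). Over all gene symbols, 75 of 21950 passed and were higher. The other 9 mast cell markers did not pass. Among them Ms4a2, Fcer1a, Mrgprb1 and Mcpt4 were dim, with means at percentiles 7.1, 8.2, 6.0 and 13.3 of all probe sets, so changes in them could be missed. Mast cells are known makers of prostaglandin D2 through Hpgds, whose log2 difference was -0.06, and of leukotrienes through Alox5ap, whose value was 0.34. Neither passed (limma adjusted p = 0.664 and 0.281). The part of these marker levels in the differences of Ptger4, Ptgs1 and Alox5ap was not tested. Of the targeted genes, Foxp4 fell, with 9.80 ± 0.03 in mutants and 10.21 ± 0.05 in controls (log2, SD, n = 3 each, limma adjusted p = 0.0190), and Foxp1 had a log2 difference of -0.27 (limma adjusted p = 0.0884). In the authors' deposited table Foxp4 had a q of 0% and Foxp1 one of 3.70%, with 1.72% of all probe sets under 5%. Where the probes lie relative to the deleted parts is not given, so these values are no check of the genotype.

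**Figure D4:**
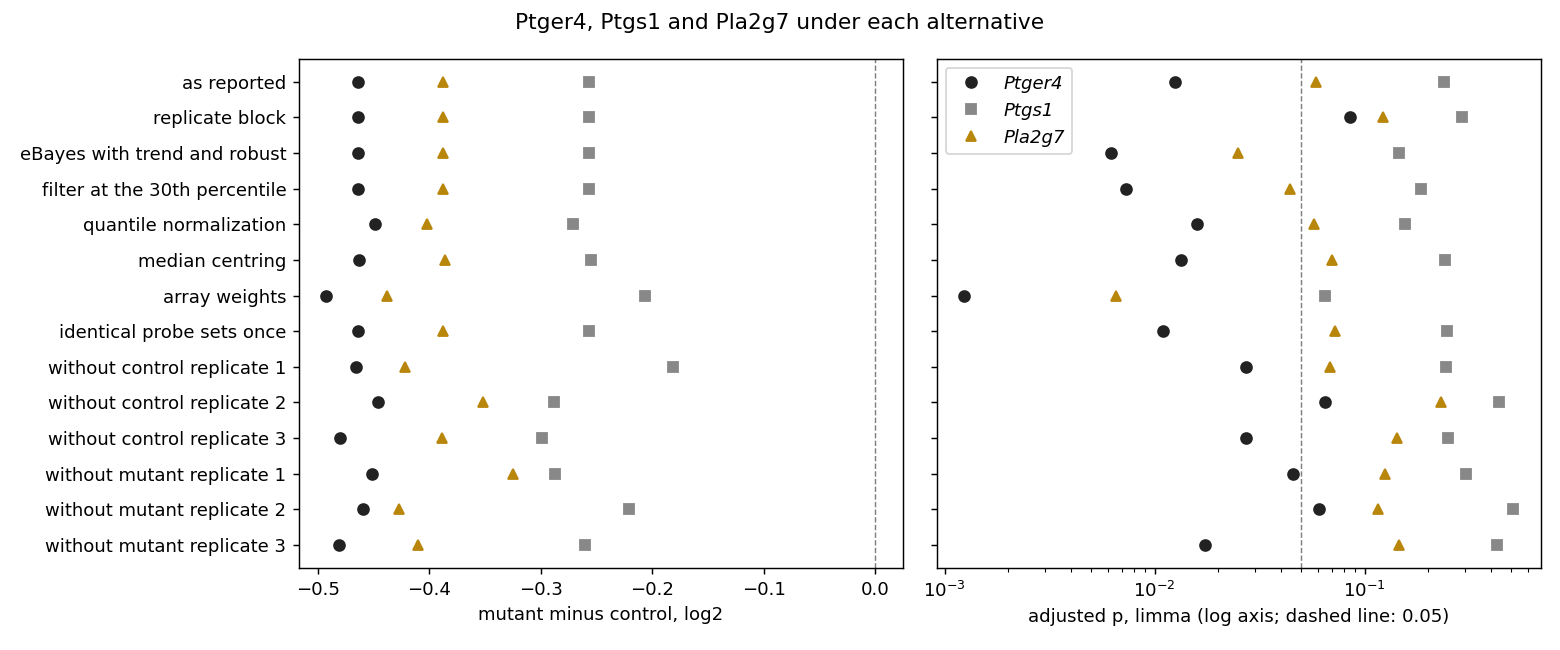
Log2 differences (left) and limma adjusted p (right, log axis with 0.05 dashed) of Ptger4, Ptgs1 and Pla2g7 are plotted as reported and under the 13 alternatives. The difference of Ptger4 keeps between -0.49 and -0.45 throughout, while its adjusted p lies above the dashed line in 3 alternatives, up to 0.0849.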

How the data were processed

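RNA of whole lungs at E14.5 was extracted with a silica column kit, amplified from a poly(T) primer with a T7 promoter and labelled with biotin, per the labels' protocols. Each deposited value is the log2 expression of a probe set, made by the authors with RMA (robust multi-array average), per the submitters' processing notes. Not given in the sources used here are the array type, the genome build and software versions. The authors' deposited table adds their own comparison, which per the file headers holds a p-value, a q-value as a percentage, a signed fold and a difference score, with the test not given. The array values of both tables were identical for all 28815 probe sets, and samples were matched through the labelled matrix.

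Symbols came from the deposited table and were updated through the RefSeq gene table of GRCm38.p6: 20529 probe sets by accession, 2555 by gene ID, 1052 by symbol, 371 by older symbol, with 1021 names kept and 3287 without a symbol. Mutant minus control was fitted with limma 3.58.1 in R 4.3.3 (2-sided moderated test of lmFit with eBayes, without covariates or filters), adjusted by Benjamini-Hochberg over all probe sets, with a threshold of 0.05. Intervals are limma's 95% intervals. A gene with several probe sets is given by the one with the highest mean. Exact permutation tests used scipy 1.17.1. The fit was tested on simulated data.

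All 10 genes are named. Of the other pathway lists the genes that passed and up to 4 with the smallest p are named, of the marker lists those that passed and up to 3, and the 5 nearest profiles, of which 1 is not reported here. Cma1 was named after its values were seen. The members and lists were chosen with earlier results of these data known. Per the design text the arrays are of separate embryos, whose spread the p-values measure. Replicate numbers were checked for pairing by the correlation of deviations from the group means. It was -0.19, 0.04 and -0.19 for the same-numbered pairs, which gave no sign that the numbers pair the arrays. The highest values were 0.21 (mutant 3 with control 1) and 0.20 (mutant 1 with control 3), and a pairing in another order was not tested. The precision is limited by 3 arrays per group.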

Additional observations from a re-analysis of the deposited data

How the results depend on the processing

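The difference of Ptger4 kept its direction in all 13 alternatives and passed in 10. The call ended with the replicate block (-0.46, limma adjusted p = 0.0849), and the fits without 1 array gave -0.48 to -0.45 with limma adjusted p of 0.0174 to 0.0648. The number of the 10 genes called was 1 and was 0 with the replicate block and 0 to 1 without 1 array. Over all probe sets the count of 223 was 7 with the replicate block, 1748 with array weights (whose iteration stopped before it converged), 138 with identical probe sets counted once, and 11 to 152 without 1 array. Under the block 2 residual degrees of freedom remain, and the replicate numbers gave no sign of pairing the arrays. Of the other pathway genes, 1 passed with eBayes set to trend and robust and 1 with the filter at the 30th percentile, Pla2g7 in both (limma adjusted p = 0.0250 and 0.0443), and 4 with array weights, Ptgr1, Abcc4, Pla2g5 and Pla2g7. Differences near 0 changed sign without 1 array, where Ptger1 ranged from -0.084 to 0.014, Ptger2 from -0.025 to 0.026, Ptger3 from -0.027 to 0.064, Hpgd from -0.193 to 0.017, Ptgfr from -0.0052 to 0.096, Tbxa2r from -0.115 to 0.033 and Ptgdr from -0.073 to 0.041. Ptgdr was also 0.014 with quantile normalization and 0.027 with array weights. None of these passed. The cause was not tested.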
